A study of Homo sapiens with 6 samples.

Results

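Amino acid and taurine transporter genes were examined for nearby NRF2 occupancy in HMC3 cells, an established line of human microglia. NRF2 is the transcription factor that switches on antioxidant and detoxification genes, and its binding was mapped by chromatin immunoprecipitation and sequencing (ChIP-seq) with 1 antibody in all libraries. The genes were every protein-coding gene of the RefSeq table on hg38 whose symbol begins with SLC1A, SLC6A, SLC7A, SLC36A, SLC38A or SLC43A, leaving out the cystine transporter gene SLC7A11. This gave 58 of 19970 protein-coding genes on chromosomes 1 to 22 and X. All peaks of the deposited lists were taken whose summit, the position of highest signal, lay inside such a gene or within 20 kb of either end. The vehicle group held 2 libraries, and the CDDO-Im group held 2 libraries of cells exposed for 4 h to 30 nM of CDDO-Im, a triterpenoid compound that activates NRF2. The labels give all samples 1 shared treatment text, and the groups rest on the sample titles. They do not say whether libraries of a group are from different cultures, so the spread between libraries may be technical. The permutation p-values only compare the ways of dividing these libraries into groups, and do not measure that spread. Peak lists hold no expression, so the cell type was not checked against marker genes.

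The 6 families share out most amino acid traffic across the plasma membrane. SLC1 members import glutamate, aspartate or small neutral amino acids, SLC6 members carry neurotransmitters, taurine, creatine and neutral amino acids with sodium and chloride, and SLC7 members are cationic carriers or the light chains of heteromeric exchangers. SLC36 members are proton-coupled, SLC38 members include the sodium-coupled glutamine transporters, and SLC43 members carry large neutral amino acids by facilitated diffusion. NRF2 is best known in this field for SLC7A11, whose cystine uptake feeds glutathione synthesis, and it binds antioxidant response elements together with small MAF proteins. The families reach beyond the name given to the group: the SLC6 genes include the monoamine carriers SLC6A2, SLC6A3 and SLC6A4 and the creatine carrier SLC6A8, SLC43A3 carries purine nucleobases, and SLC7A6OS is named only for lying opposite SLC7A6 and is no transporter gene.

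On the chromosomes used, vehicle 1 and 2 listed 4098 and 7308 peaks, and CDDO-Im 1 and 2 listed 3882 and 12244. The number of sequenced tags under a summit was worked out from the authors' fold enrichment and p-value of the peak. The genome-wide background lay between 0.315 and 0.367 tags per library and stands in for depth, because the lists give no totals. Each library listed peaks from 4 tags upward at that background, so a weaker site goes unlisted, and a missing peak does not show that NRF2 was absent. Megabases crowded with peaks, defined by more than 20 joined regions, held between 16.3% and 82.5% of a list. At the transporter genes 0 of the peaks lay in one. At all protein-coding genes, 696 of 697 and 744 of 746 vehicle peaks also lay outside such megabases. With CDDO-Im these were 1875 of 1879 and 2818 of 2822.

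NRF2 peaks were few at the transporter genes, and 12 of the 13 came from CDDO-Im libraries. Vehicle 1 listed 0 peaks, vehicle 2 listed 1, CDDO-Im 1 listed 5 and CDDO-Im 2 listed 7. The CDDO-Im libraries thus lay above the vehicle libraries, with means of 6 ± 1.41 against 0.5 ± 0.707 peaks (SD, n = 2 each). The difference in means was 2.29 on the scale of log2 of the number plus 1 (exact permutation p = 0.333, two-sided, the smallest that 2 libraries against 2 allow). Each library had its peaks at separate genes, so the same numbers count genes, with a difference of 5.5 genes (exact permutation p = 0.333). Over all protein-coding genes the peaks numbered 697 and 746 with vehicle and 1879 and 2822 with CDDO-Im, a difference of 1.67 on the same log2 scale (exact permutation p = 0.333). Whether the transporter genes differ from all genes in this respect was not tested.

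As a group, the transporter genes had no more NRF2 peaks than protein-coding genes at large. Vehicle 1 had a peak at 0 of 58 genes, which allows a share of up to 5.17% by a limit of 3 counts (exact 95% binomial upper bound 6.16%), against 4.16% of all protein-coding genes. Vehicle 2 had one at 1 gene (1.72%, exact 95% binomial interval 0.0436% to 9.24%), against 4.54%. For CDDO-Im 1 the 5 genes made 8.62% (2.86% to 19.0%), against 10.4%, and for CDDO-Im 2 the 7 genes made 12.1% (4.99% to 23.3%), against 14.8%. In each library the share of all genes lay inside the interval of the transporter genes, which covers counting error only. The windows of 9 members overlap that of another member, so the genes are not fully independent. Counting any library, 10 of 58 genes had a peak, against 20.5% of all genes. The median length of the members was 44.4 kb, against 24.2 kb for all protein-coding genes. The bearing of gene length on these shares was not tested. Per megabase of gene and flank, the transporter genes had 0, 0.195, 0.973 and 1.36 peaks in vehicle 1, vehicle 2, CDDO-Im 1 and CDDO-Im 2, against 0.43, 0.46, 1.16 and 1.74 for all protein-coding genes.

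**Figure D1:**
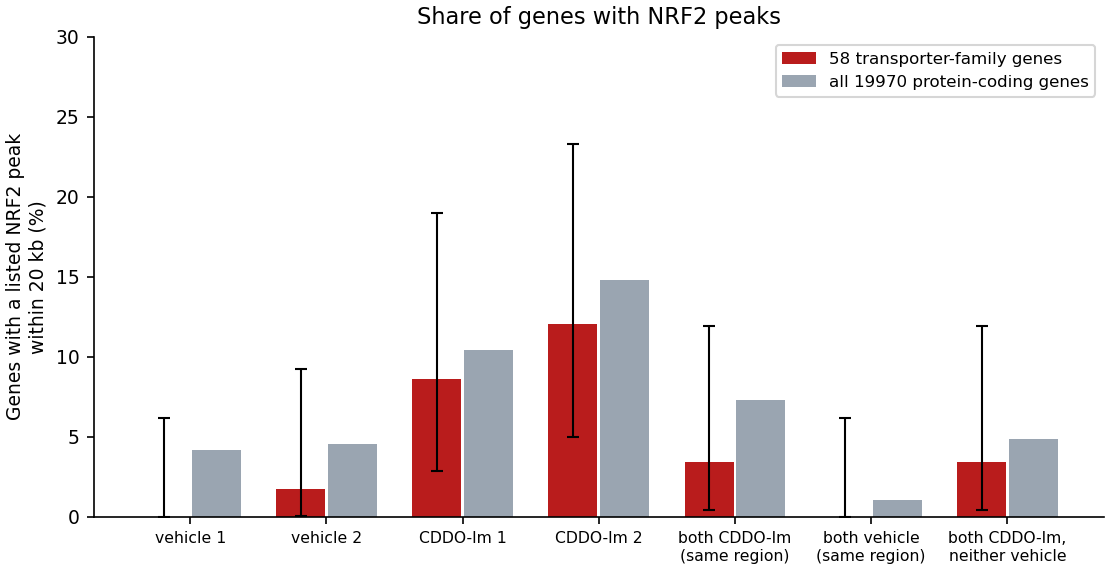
Share of genes (%) with a listed NRF2 peak inside the gene or within 20 kb, for the 58 transporter-family genes (red, with exact 95% binomial intervals) and all 19970 protein-coding genes (grey), by library and for regions held by several libraries. The red bar is below the grey bar in every column, and the grey bar lies within the interval of the red one in every column.

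Peaks were joined into a region where they overlapped by at least 1 bp. A region listed in both CDDO-Im libraries lay at 2 of 58 genes (3.45%), SLC7A14 and SLC38A11, against 7.3% of all protein-coding genes. Neither region was listed in a vehicle library, so the same 2 genes had a gained region (listed in the CDDO-Im pair and in no vehicle library), against 4.85% of all genes. The transporter genes had 0 regions of both vehicle libraries (1.07% of all genes), 0 lost regions, held by both vehicle and neither CDDO-Im library (0.0351%), and 0 regions of all 4 libraries (1.06%). With peaks of a −log10 q of at least 10 alone, SLC7A14 was the 1 gene with a gained region (3.35% of all genes). It was also the 1 gene for regions inside the gene (3.11%) and within 10 kb of it (3.91%). Replication decided these counts: without CDDO-Im 1 the gained count was 7 of 58 genes (12.6% of all genes) and without CDDO-Im 2 it was 5 (8.09% of all genes), since a single list then stands for the group. Without vehicle 1, SLC7A13 counted as 1 gene with a vehicle region (4.54% of all genes) and a lost region (2.21%).

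SLC7A14, a lysosomal member of the cationic amino acid transporter family, carried the strongest NRF2 region of the 58 genes. CDDO-Im 1 had 23 tags at the summit (exact 95% Poisson interval 14.6 to 34.5) and CDDO-Im 2 had 34 (23.5 to 47.5). Neither vehicle library listed a peak there, and their nearest peaks lay 161 kb and 612 kb from the gene. Over the genome-wide background these tags were 69.3 and 92.5, so the CDDO-Im 2 value was 1.33 times that of CDDO-Im 1, and the counting intervals of the tags overlap. The authors' fold enrichment was 16.7 and 22.1, with a −log10 p of 32.7 and 48.4 and a −log10 q of 27.9 and 43.7. By −log10 q the peak ranked 381 of 3882 in CDDO-Im 1 and 420 of 12244 in CDDO-Im 2. Among 1475 gained regions of the whole genome it ranked 46 by the lower of the fold enrichments, with medians over gained regions of 11 and 15 tags. The region spans chr3:170506566-170506932 on hg38, 367 bp, and the summits of the libraries are 1 bp apart. It lies inside SLC7A14, 47.2 kb from the nearer gene end and 79.3 kb downstream of the annotated start site, and also inside the antisense lncRNA gene SLC7A14-AS1. The annotation used gives no exons, so exonic and intronic places were not told apart for any peak.

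The remaining SLC7 peaks came from 1 library each and held 7 to 10 tags. SLC7A1, the main cationic amino acid importer of most cells, had a CDDO-Im 2 peak of 10 tags with a −log10 q of 8.76. It ranked 3311 of 12244 by −log10 q and lay at chr13:29583383-29583680, inside the gene and 12.2 kb from its annotated start site. SLC7A5, the leucine-importing light chain known as LAT1, had a CDDO-Im 2 peak of 8 tags with a −log10 q of 4.74 at chr16:87860552-87860728, 8.86 kb inside the gene from its start. Both were absent from the list of CDDO-Im 1. SLC7A13, a light chain best known from kidney, had the only vehicle peak of all 58 genes, with 7 tags in vehicle 2 and a −log10 q of 3.68 (chr8:86224024-86224200, inside the gene). The other 9 SLC7 genes had no listed peak: SLC7A2, SLC7A3 and SLC7A4 of the cationic branch, the light chains SLC7A6, SLC7A7, SLC7A8, SLC7A9 and SLC7A10, and SLC7A6OS.

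In the SLC38 family, SLC38A11 was the 1 of 12 genes with a peak (20.5% of all protein-coding genes had one in any library). CDDO-Im 1 had 13 tags there (6.92 to 22.2) and CDDO-Im 2 had 11 (5.49 to 19.7), and neither vehicle library listed it. Over background these were 39.2 and 29.9, so unlike at SLC7A14 the CDDO-Im 2 value was lower, 0.764 times that of CDDO-Im 1. Across gained regions the median of this ratio was 1.26. Fold enrichment was 10.0 and 7.96 and −log10 q 12.5 and 8.67, and the region ranked 612 of 1475 gained regions, so it was near the middle of them. It spans chr2:164883603-164883914 outside the gene, 10.6 kb beyond the end that lies away from the start site, 71.8 kb downstream of that start. No other protein-coding gene lay within 20 kb of the summits.

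The SLC38 genes that carry glutamine in many cell types had no peak in the window. SLC38A1 and SLC38A2, sodium-coupled glutamine transporters that lie side by side, shared a nearest peak in vehicle 2 of 6 tags, 49.2 kb and 40.0 kb away. Their nearest CDDO-Im 2 peaks were 352 kb from SLC38A1 and 482 kb from SLC38A2. SLC38A3, SLC38A5, SLC38A6, SLC38A7, SLC38A8, SLC38A10 and SLC38A12 likewise had none. The lysosomal arginine sensor SLC38A9 had its nearest CDDO-Im peaks at 881 kb in CDDO-Im 1 and 125 kb in CDDO-Im 2. SLC38A4, a hepatic neutral amino acid transporter, fell just outside the 20 kb limit. A region 21.9 to 22.0 kb from the gene held 8 tags in vehicle 2, 23 in CDDO-Im 1 and 11 in CDDO-Im 2, and vehicle 1 did not list it. Just inside the limit was the SLC6A5 peak described below, at 18.2 kb with 5 tags. With a window of 50 kb SLC38A4 joined the genes with a region shared by the CDDO-Im pair, making 3 of 58 against 11.6% of all genes. That window added 9 peaks, 4 of them from vehicle libraries. It also reached SLC6A13 with the SLC6A12 peak described below, and SLC7A1 then had a further region 25.9 kb away with 7 tags in vehicle 2 and 12 in CDDO-Im 2.

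Among the SLC6 genes, 3 of 19 had a peak, each from CDDO-Im libraries (20.5% of all protein-coding genes had a peak in any library). SLC6A6 encodes the taurine transporter, and taurine is an abundant osmolyte in brain. It had a peak in both CDDO-Im libraries, but at separate places 6.51 kb apart inside the gene. CDDO-Im 1 had 8 tags at chr3:14417281-14417567 with a −log10 q of 5.56, and CDDO-Im 2 had 10 tags at chr3:14410815-14411021 with a −log10 q of 5.66. No SLC6A6 place was thus listed in more than 1 library, and both peaks stood near the middle of their lists, at 54.8% and 48.9% counted from the top by −log10 q. SLC6A12, the betaine and GABA carrier BGT1, had a CDDO-Im 2 peak of 8 tags 4.39 kb outside the gene (chr12:179356-179532), which lay inside the lncRNA gene IQSEC3-AS1 and 1000 bp from IQSEC3. SLC6A5, the neuronal glycine transporter GlyT2, had a CDDO-Im 1 peak of 5 tags 18.2 kb outside (chr11:20677413-20677618), inside the neighbouring gene NELL1. With a −log10 q of 2.29 it was the weakest of the 13. The GABA carriers SLC6A11 and SLC6A13, the glial glycine transporter SLC6A9, the monoamine carriers SLC6A2, SLC6A3 and SLC6A4, the creatine carrier SLC6A8, and SLC6A7, SLC6A14, SLC6A15, SLC6A16, SLC6A17, SLC6A18, SLC6A19 and SLC6A20 had none.

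In the SLC1 family 2 of 7 genes had a peak, against 20.5% of all protein-coding genes in any library. Each of the 2 had it in a single CDDO-Im library. SLC1A5, the neutral amino acid exchanger ASCT2 that imports glutamine, had the strongest peak listed by 1 library, with 12 tags in CDDO-Im 2 (6.20 to 21.0), a fold enrichment of 9.51 and a −log10 q of 11.7. It lies at chr19:46786430-46786833, inside the gene. Its summit is 2.01 kb downstream of the first annotated start site, 0.707 kb downstream of a second one and 1.77 kb upstream of another. CDDO-Im 1 did not list it, and its nearest peak was 78.3 kb from the gene. SLC1A2, the glutamate transporter EAAT2 of astrocytes, had a CDDO-Im 1 peak of 6 tags with a −log10 q of 3.1 at chr11:35320054-35320259, 69.0 kb inside the gene from its nearer end. The glutamate transporters SLC1A1, SLC1A3, SLC1A6 and SLC1A7 and the neutral amino acid exchanger SLC1A4 had no listed peak. SLC1A3 encodes EAAT1, the other main glial glutamate carrier, and its nearest peaks were 158 kb away in vehicle 1 and 216 kb away in CDDO-Im 1.

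The proton-coupled SLC36A1, SLC36A2, SLC36A3 and SLC36A4 and the SLC43 genes SLC43A1, SLC43A2 and SLC43A3 had 0 peaks in any library. SLC36A1, a lysosomal carrier, had its nearest CDDO-Im peaks at 659 kb and 281 kb. SLC43A2, the large neutral amino acid carrier LAT4, had a CDDO-Im region 202 kb away. In all, 48 of 58 genes had no peak in the window. Of all protein-coding genes, 20.5% had a peak of any library, and differences between families were not tested.

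**Figure D2:**
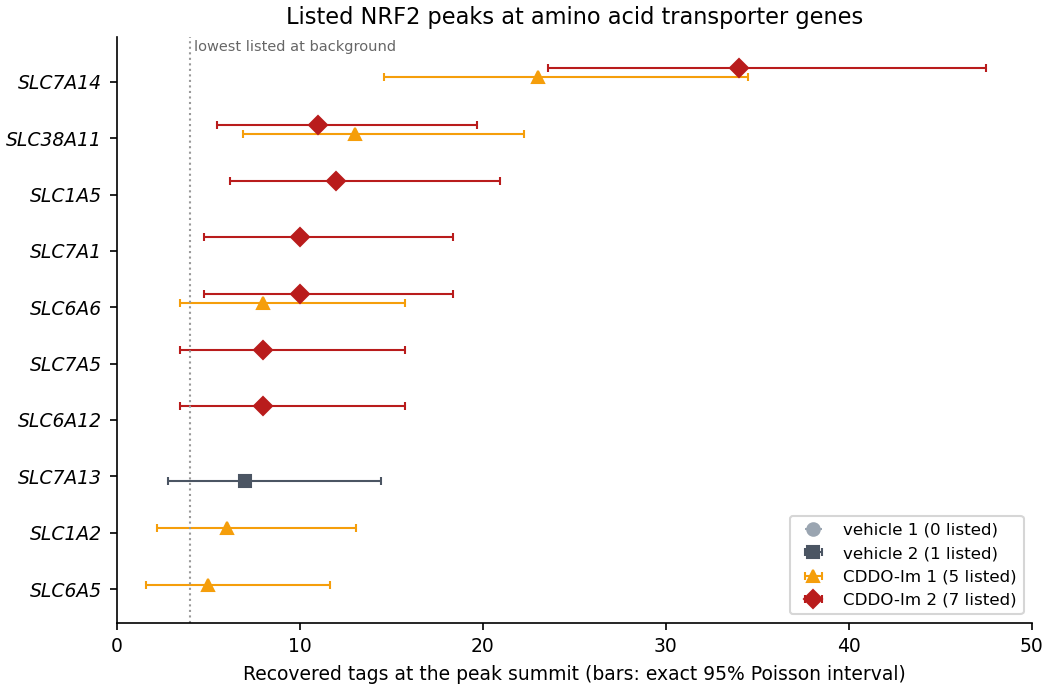
Recovered tags at the summit of each of the 13 listed peaks, by gene and library, with exact 95% Poisson intervals that cover counting error only; the dotted line marks 4 tags, the lowest listed at the genome-wide background. SLC7A14 stands apart with 23 and 34 tags, the other peaks hold 5 to 13, and SLC7A13 has the only vehicle point.

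The 9 peaks outside the SLC7A14 and SLC38A11 regions had 5 to 12 tags, fold enrichments of 4.51 to 9.51 and −log10 q values of 2.29 to 11.7. They were 177 to 404 bp wide. Of all 13 peaks, 9 lay inside the gene and 4 outside, and 0 lay within 1000 bp of an end of the gene that selected them. A start site was found in the promoter table for 6 of the 10 genes with a peak, leaving out SLC1A2, SLC6A6, SLC6A12 and SLC7A13. At these 6 genes, 0 peaks overlapped the promoter window of their gene. Matching shares over all protein-coding genes are not given here.

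**Figure D3:**
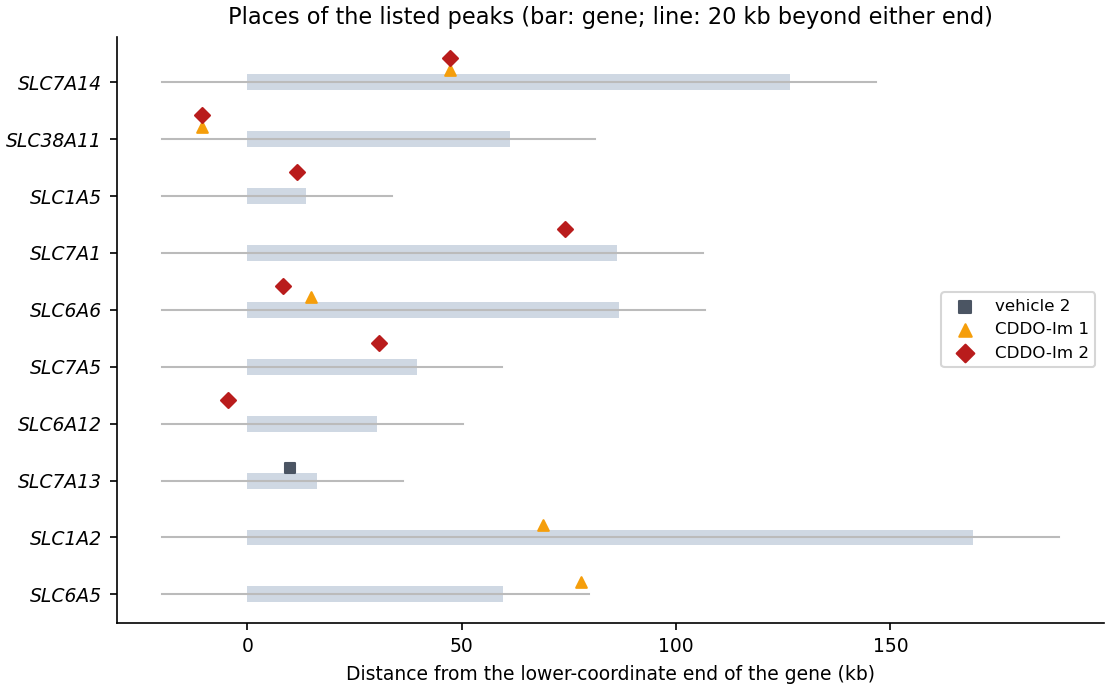
Places of the 13 listed summits along the 10 genes that have one, in kb from the lower-coordinate end of each gene (bar: gene, line: 20 kb beyond either end; symbols are staggered by library for sight only). The CDDO-Im symbols share a place at SLC7A14 and SLC38A11 and stand 6.51 kb apart at SLC6A6.

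Distances to the nearest listed summit gave each gene a value in each library. Their medians over the 58 genes were 955 kb in vehicle 1, 802 kb in vehicle 2, 405 kb in CDDO-Im 1 and 249 kb in CDDO-Im 2. Over all protein-coding genes they were shorter in each library, at 790, 715, 280 and 177 kb. A summit within 100 kb was found for 3, 8, 9 and 12 transporter genes (5.17%, 13.8%, 15.5% and 20.7%), against 11.2%, 12.1%, 25.9% and 35.6% of all genes, so vehicle 2 was the exception to the lower share. List length was not removed here, and its bearing on the distances was not tested. CDDO-Im 1 had the shortest list, of 3882 peaks, but a shorter median distance than either vehicle library. Outside crowded megabases the lists held 1216 and 1276 peaks with vehicle and 3249 and 4795 with CDDO-Im. SLC38A12 was far from peaks throughout, with a nearest summit 1356 to 1395 kb away across the 4 libraries. SLC7A4 had a summit 76.3 kb away in each of the 4 libraries.

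**Figure D4:**
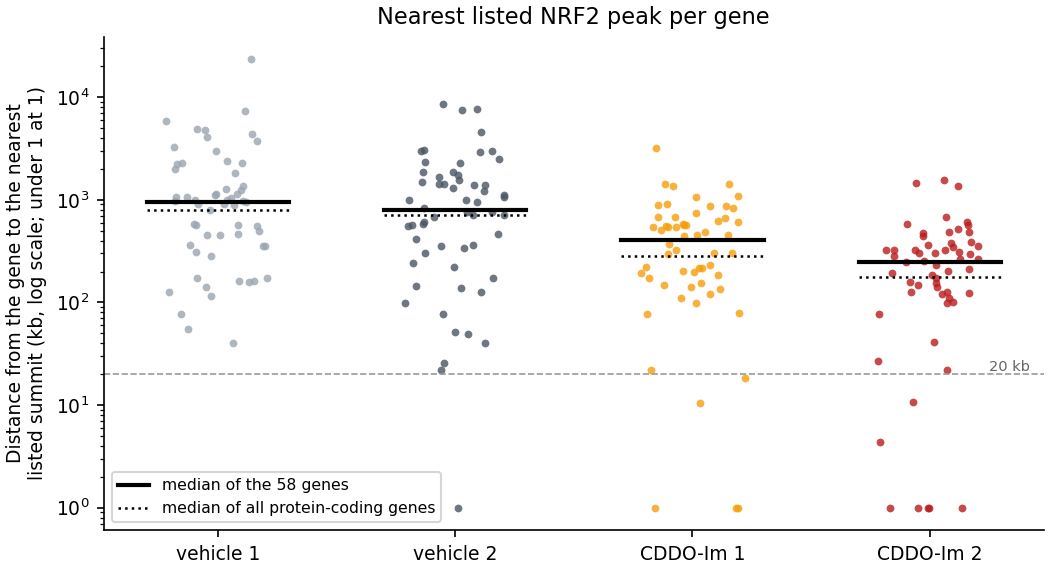
Distance in kb (log axis) from each of the 58 genes to the nearest listed summit, by library; points are genes, solid lines their medians, dotted lines the medians of all protein-coding genes, and genes with a summit inside are drawn at 1. The medians fall from 955 and 802 kb in the vehicle libraries to 405 and 249 kb in the CDDO-Im libraries, and each solid line is above its dotted line.

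The promoters were searched for the core of the antioxidant response element, the sequence NRF2 binds with its MAF partner. RefSeq promoter windows on GRCh38.p14, 250 bases before to 50 after a start site, were matched for 45 of the 58 genes (65 windows). The letters TGACNNNGC were searched on both strands. They occurred at 6 of the 45 genes (13.3%), against 17.9% of 15812 protein-coding genes in the table, and in 9.23% of member windows against 13.8% of all such windows. The 7 matches are printed 5′ to 3′ with 9 bases on either side, read so that the core runs forward, with the core in capitals, to show which letters each gene has where no NRF2 peak was listed.
SLC1A3, chr5:36606401-36606427, + strand: acagtgaacTGACAAAGCgtgaaagtg
SLC1A5, chr19:46787387-46787413, + strand: agcgggagcTGACCTCGCaagatccag
SLC7A1, chr13:29595756-29595782, − strand: gcccggcggTGACGCGGCcgagcgggc
SLC7A5, chr16:87869492-87869518, − strand: cggggttccTGACGCAGCtgcgggcgg
SLC7A6, chr16:68264320-68264346, + strand: ctcgagcccTGACGAGGCagctggggg
SLC7A6, chr16:68264488-68264514, + strand: ggcggcgggTGACGTGGCggggcgggg
SLC7A7, chr14:22819862-22819888, − strand: ctctgggtcTGACCAGGCagtcccagc

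The SLC1A5 match is on the strand opposite to the gene, before the start site nearest to its CDDO-Im 2 peak. The window's edge was 0.658 kb from that peak's summit. The SLC7A5 match begins 2 bases before the start site and runs across it. Of the 7 sites, 0 held the AP-1 letters TGACTCA or TGAGTCA, which can overlap this core. No library listed a peak over any of the 65 windows, those of SLC7A14 and SLC38A11 included, which hold no match. The share of all protein-coding windows with a peak over them is not given here. A match is a run of letters and not a bound site. The sequences under the SLC7A14 and SLC38A11 peaks were not analysed here.

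Other amino acid genes outside the 6 families were given by 4 lists with 49 genes. A region shared by the CDDO-Im pair lay at 6 of the 49 (12.2%), against 7.3% of all protein-coding genes, and 4 of the 49 (8.16%) had a gained region, against 4.85%. None of these differences from the background was tested, and the lists were chosen with earlier results of these data known. Among 9 genes of taurine synthesis and use, CTH, which releases cysteine from cystathionine, had a gained region 1.94 to 1.97 kb outside the gene with 16 and 26 tags in CDDO-Im 1 and 2. GADL1, a decarboxylase related to CSAD, had a peak inside the gene in CDDO-Im 2 alone, with 7 tags and a −log10 q of 4.75. The taurine synthesis genes CDO1, CSAD and ADO had none. Of 12 mitochondrial carriers, SLC25A13, an aspartate-glutamate carrier, had 14 and 22 tags inside the gene, and SLC25A44, a branched-chain amino acid carrier, had 13 and 9 tags 1.64 to 1.65 kb outside. Both were listed in neither vehicle library.

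The list of 15 heavy chains and other membrane carriers had 1 such gene, SLC17A5, the lysosomal sialic acid exporter, with 7 and 12 tags and no vehicle peak. SLC3A2, the heavy chain that SLC7A5 and other light chains need at the surface, had a peak in vehicle 1 alone, 13.4 kb outside the gene with 7 tags. SLC17A8, a vesicular glutamate transporter, had a peak in CDDO-Im 2 alone, 7.82 kb outside the gene with 7 tags. Of 13 amino acid response genes, 2 had a region shared by the CDDO-Im pair, and neither was gained. EIF2AK4, the kinase GCN2 that senses uncharged tRNA, held 12 tags in vehicle 2, 34 in CDDO-Im 1 and 43 in CDDO-Im 2. TRIB3, a pseudokinase of the ATF4 pathway, held 7 tags in vehicle 1, 16 in CDDO-Im 1 and 20 in CDDO-Im 2, 15.6 to 15.7 kb outside the gene. In both regions the CDDO-Im libraries lay above the vehicle library that listed it, and the other vehicle library did not list it. TRIB3 also had a separate peak in CDDO-Im 2 alone, 8.57 kb outside the gene, with 11 tags and a −log10 q of 8.67. CEBPB, a transcription factor gene of the same list, had a peak in vehicle 2 alone, with 8 tags 5.08 kb outside the gene. ATF4 itself had no peak in the window.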

How the data were processed

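NRF2 ChIP-seq peak lists of 4 libraries were used. The 2 inputs were not analysed here. The submitters' processing notes name MACS2 2.2.7.1, BWA 0.7.17 and bcl2fastq 2.15.0, and the builds hg38 and GRCm38. The control, the threshold and the treatment of duplicates are not given in the sources used. Each peak's name carries its library, so the authors called peaks per library. For each peak the authors deposited a fold enrichment (ratio), a −log10 p, a −log10 q and a score equal to 10 times the −log10 q, rounded down, for all but 3 peaks.

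Whole tags were recovered by solving the fold, (tags + 1)/(background + 1), together with the Poisson p of more tags than observed (tolerance 0.001 plus 0.0002 of the value). They matched for 100% of peaks in each library, and the 13 peaks at these genes had a single match each. The recovery returned the true tags for 1987 of 2000 simulated peaks, and region classes were checked the same way (300 of 300 right). Numbers of peaks were compared by an exact permutation test after adding 1, because 1 library had 0 peaks. Intervals are exact and cover counting error only. Gene ends came from RefSeq on GRCh38.p14. Python 3.11.15, scipy 1.17.1 and pandas 2.3.3 were used.

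Each gene with a region of 2 or more libraries was to be named with its values, genes with peaks of 1 library by range and counts, with values for the strongest, and the other genes by name; 1 gene is not reported here by name. The genes and lists were chosen with earlier results of these data known. Alternatives were the −log10 q limit, dense megabases, the window, joining, list length, left-out libraries and a replicate block.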

Additional observations from a re-analysis of the deposited data

How the results depend on the processing

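The mean number of peaks and of genes with a peak per library stayed higher with CDDO-Im under every alternative run, with the difference in peaks between 1.57 and 2.79 on the log2 scale and that in genes between 2 and 6.5. Leaving out 1 library gave 1.79 to 2.79 for peaks and 4.5 to 6.5 for genes. With the same 3882 peaks per library the counts were 0 and 0 with vehicle and 5 and 4 with CDDO-Im. In the full lists, crowded megabases held 70.3% and 82.5% of peaks with vehicle and 16.3% and 60.8% with CDDO-Im. The matching shares in the lists of equal length are not given here. With a replicate block, permuting only within same-numbered libraries, the differences remained 2.29 and 5.5, and p was 0.5, the smallest it allows. The labels do not say what a number shares, and the correlation of deviations in the 433 regions of all 4 libraries was 0.241, and -0.0433 in the 230 outside dense megabases. Genes with a region shared by the CDDO-Im pair, and with a gained region, were 1 in place of 2 at a −log10 q of at least 10, inside the gene only and within 10 kb, each time because SLC38A11 no longer met the limit. Leaving out 1 library gave 2 to 7 for both counts (7.3% to 14.8% of all genes for shared and 5.25% to 12.6% for gained regions), and 0 to 1 for vehicle and for lost regions (up to 4.54% and 2.69% of all genes). The rises came where fewer lists had to hold a region. No region was listed in all 4 libraries at these genes, so the planned comparison of tags there, its measures of depth included, gave no value. Peaks of 5 to 13 tags limit what can be told at 9 of the 10 genes with a peak.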
